A study of Caenorhabditis elegans with 18 samples.

Results

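Whether loss of dpf-3 changes the miRNA profile differently when alg-2 is also missing was examined in 12 of the 18 small RNA libraries of the series, chosen by their genotype labels. The 4 genotypes, with 3 libraries each, were the double mutant dpf-3(xe68);alg-2(ok304), the single mutant alg-2(ok304), the single mutant dpf-3(xe68), and N2, the Bristol wild type strain. The labels name no further allele or treatment. All animals were young adult Caenorhabditis elegans grown at 25 °C on OP50 bacteria, and RNA came from pellets of whole worms, so fewer cells of a type and less RNA per cell cannot be told apart. The effect of dpf-3 loss was taken within each background, as double mutants over alg-2 mutants and as dpf-3 mutants over N2. The interaction is the first of these log2 changes minus the second: a positive value means that loss of dpf-3 raised a miRNA more, or lowered it less, in alg-2 animals than in N2.

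MiRNAs are short RNAs that work only once they sit in an Argonaute protein, and a miRNA without one is usually short-lived. In C. elegans most miRNAs are carried by the closely related Argonautes ALG-1 and ALG-2, which overlap in function. dpf-3 encodes a dipeptidyl peptidase, an enzyme that removes pairs of amino acids from the N termini of proteins. Many miRNAs of the worm come in families that share a seed, the stretch near the 5′ end that pairs with target mRNAs, and several families mark a stage or tissue: the let-7 and lin-4 families time larval development, and the mir-35 family is made in oocytes and embryos.

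The 12 libraries held between 7784638 and 22503629 counts and detected between 147 and 154 of 175 miRNAs. Levels are given in CPM, counts per 1000000 after scaling by composition factors (TMM), which correct for a few abundant miRNAs taking up more of a library. These factors ran from 0.952 to 1.07. The double mutant and alg-2 libraries carry a library name in their labels that is missing from the dpf-3 and N2 libraries, which leaves the possibility of 2 sets made apart. Each effect of dpf-3 was measured inside 1 such set. A difference between the sets that scales all libraries of a set alike leaves the interaction unchanged, and any other difference between the sets cannot be told apart from the alg-2 background. Such a scaling of a miRNA would still shift its levels between the sets. Rankings of double or alg-2 mutants against dpf-3 mutants or N2 therefore describe these libraries and cannot be credited to genotype alone. MiRNA counts do not measure the dpf-3 and alg-2 transcripts, so the genotypes were not checked on the mutated genes.

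Loss of dpf-3 acted differently in alg-2 animals than in N2 on 39 of 139 tested miRNAs (28.1%), by edgeR's quasi-likelihood test of the interaction at a Benjamini-Hochberg adjusted p below 0.05. The interaction was positive for 23 of them (16.5%) and negative for 16 (11.5%), and 12 and 5 of these differed by at least 2-fold. The oocyte and embryo miRNAs of the mir-35 family led the positive side, and mir-78, mir-788 and the developmental timing miRNAs mir-241 and mir-48 led the negative side. In the alg-2 background loss of dpf-3 raised 18 miRNAs (12.9%) and lowered 8 (5.76%), 26 in all (18.7%). In N2 it raised 22 (15.8%) and lowered 25 (18.0%), 47 in all (33.8%). In root mean square over all 139 miRNAs, the log2 effect measured 0.44 in the alg-2 background and 0.80 in N2, against 0.44 and 0.54 when that family is set aside.

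**Figure D1:**
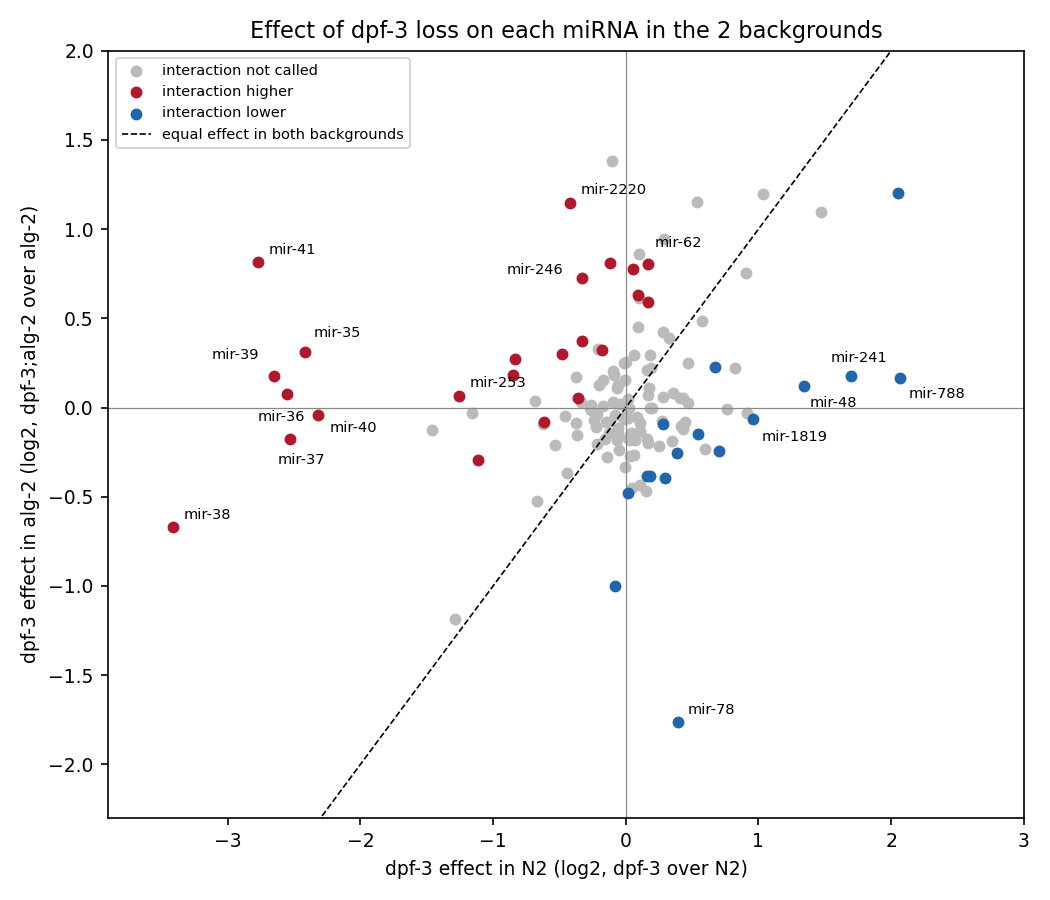
Effect of dpf-3 loss on each of 139 miRNAs, as log2 change in N2 (x axis, dpf-3 over N2) and in alg-2 animals (y axis, double mutant over alg-2), with miRNAs coloured by the call of the interaction. Called miRNAs lie away from the dashed line of equal effects, with the 8 members of the mir-35 family, of which mir-42 was not called, at -3.41 to -1.16 on the x axis and mir-48, mir-241 and mir-788 at 1.34, 1.70 and 2.07.

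The effects in the 2 backgrounds come from different libraries. Taken over the 139 miRNAs, which do not vary independently, they had a Pearson correlation of 0.17 and a Spearman correlation of 0.10, or 0.26 and 0.13 over the 131 miRNAs outside the mir-35 family. Of the 39 miRNAs with a called interaction, 22 changed in N2 with no called change in the alg-2 background, 11 showed the reverse, 5 were called in neither background alone, and 1, mir-2208b-3p, rose in both. Scaling moved the split of positive and negative calls from 23 and 16 to 10 and 33 with upper quartile factors and to 14 and 24 with no composition factors, as the median of all interactions moved from 0.042 to -0.22 and -0.063. No call changed sign in any alternative, and 14 of the 39 kept their call without each single library and in every alternative that tested them. These were mir-35, mir-36, mir-37, mir-38, mir-39, mir-40, mir-41, mir-253, mir-246 and mir-2220 on the positive side and mir-48, mir-241, mir-1819 and mir-78 on the negative side. Without N2 replicate 1 the count of calls was 13 positive and 5 negative, and without alg-2 replicate 1 it was 16 and 6.

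The mir-35 family fell in dpf-3 mutants relative to N2, while in the alg-2 background, where its level was lower still, removing dpf-3 made no called difference to any member. Members of this family act redundantly in embryonic development. Together they took 0.453, 0.466 and 0.440% of the counts of the double mutant libraries, against 0.398, 0.495 and 0.399% in alg-2 mutants. Their share was 2.62, 1.66 and 2.98% in dpf-3 mutants, against 11.7, 13.5 and 12.8% in N2. The double mutant and alg-2 libraries overlapped and lay below every dpf-3 library, and the dpf-3 libraries all lay below N2. The mean shares were 0.453% ± 0.0132 in double mutants, 0.431% ± 0.0555 in alg-2 mutants, 2.42% ± 0.680 in dpf-3 mutants and 12.6% ± 0.916 in N2 (SD, n = 3 each). That is a ratio of 1.05 between double and alg-2 mutants and of 0.192 between dpf-3 mutants and N2. Had the loss of dpf-3 lowered the family by the same factor in both backgrounds, the double mutants would have been at 0.0825%.

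mir-35 had 1833, 2211 and 1804 CPM in the double mutants, against 1445, 1848 and 1412 CPM in alg-2 mutants. Its level was 10449, 6247 and 11954 CPM in dpf-3 mutants, against 45338, 57408 and 50099 CPM in N2. The double mutants and alg-2 mutants overlapped, and the 4 genotypes otherwise lay apart. The interaction of mir-35 was 2.73 (SE 0.38, adjusted p = 9.2e-05), from an effect of 0.31 (SE 0.26) in the alg-2 background and -2.42 (SE 0.28) in N2. Levels of mir-37 were 1514, 1301 and 1498 CPM in the double mutants, against 1503, 1890.0 and 1486 CPM in alg-2 mutants. They were 8459.8, 5791 and 10837 CPM in dpf-3 mutants, against 45277, 52223 and 47522 CPM in N2. They overlapped between double and alg-2 mutants here as well. The interaction of mir-37 was 2.35 (SE 0.36, adjusted p = 1.9e-04), with effects of -0.18 (SE 0.25) in alg-2 animals and -2.53 (SE 0.27) in N2.

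7 of the 8 family members had a called positive interaction, against 16.5% of all miRNAs, and the family median was 2.68, against 0.042 over all 139. mir-36 was at 2.63 (SE 0.36), mir-38 at 2.74 (SE 0.61), mir-39 at 2.83 (SE 0.43) and mir-40 at 2.28 (SE 0.41). None of the 8 changed by the test in the alg-2 background, where the log2 effects ran from -0.67 for mir-38 to 0.81 for mir-41, and all 8 fell in N2. The interaction of mir-41 was the highest of all, at 3.58 (SE 0.62, adjusted p = 5.6e-04), but rests on few reads in alg-2 animals: 34, 33 and 18 counts in the double mutants, against 21, 13 and 27 in alg-2 mutants. mir-42, which is transcribed from another locus than mir-35 to mir-41, was at 1.12 (SE 0.55, adjusted p = 0.13) and did not pass. Its levels were 210.0 ± 40.8 CPM in double mutants, 214 ± 109 in alg-2 mutants, 267 ± 141 in dpf-3 mutants and 594 ± 122 in N2 (SD, n = 3 each). No reading of embryo or oocyte number other than these miRNAs was at hand, and its part in the result was not tested. Near-identical members may share reads, which makes their single levels uncertain.

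**Figure D2:**
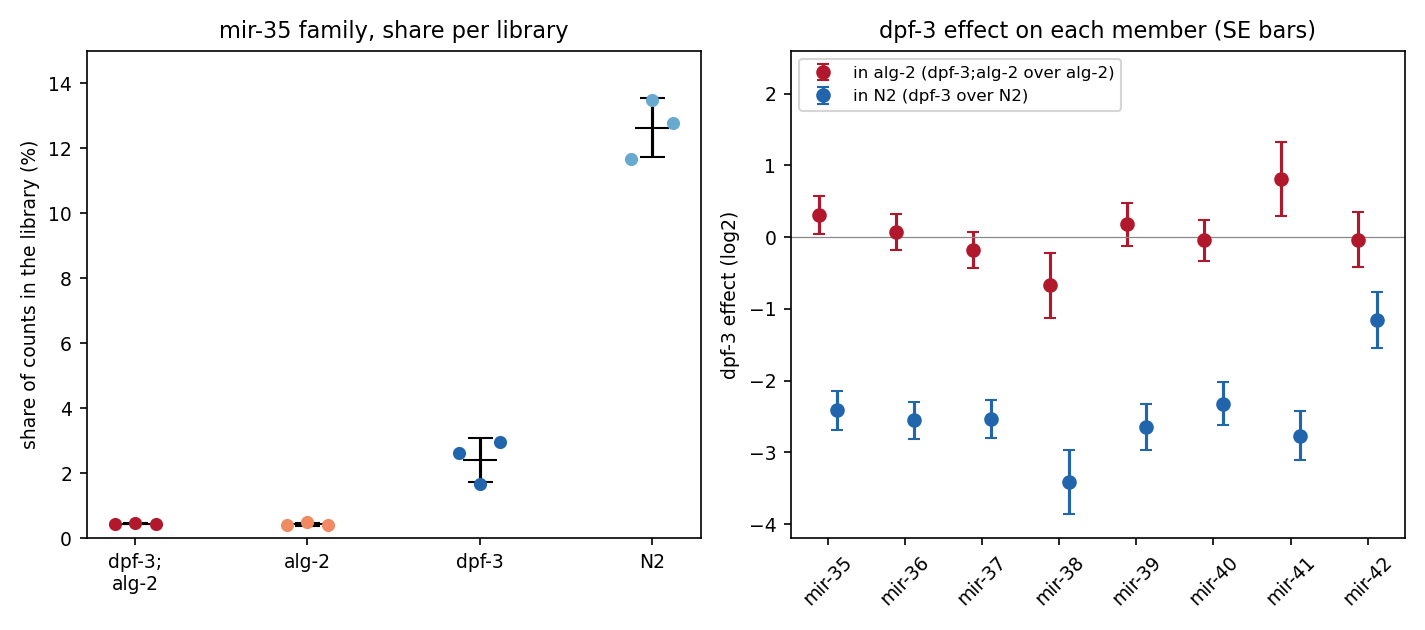
Left, share of each library's counts taken by the mir-35 family (points, 1 per library, with mean and SD) in double mutants, alg-2, dpf-3 and N2. Right, log2 effect of dpf-3 loss on each of the 8 members in alg-2 animals and in N2, with SE bars: the effects in alg-2 animals lie between -0.67 and 0.81, those in N2 between -3.41 and -1.16.

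Loss of dpf-3 raised the let-7 sisters mir-48 and mir-241 in N2 but not, by the test, in alg-2 animals. With mir-84 these miRNAs repress hbl-1 and so time the passage from the second to the third larval stage, and the genes of mir-48 and mir-241 lie next to each other. mir-48 had 33251, 31680.1 and 30779 CPM in the double mutants, against 28614, 29824 and 29727 CPM in alg-2 mutants. Its level was 53178, 47892 and 51805 CPM in dpf-3 mutants, against 21791, 19426 and 19068 CPM in N2. The double mutant libraries lay just above those of alg-2, both lay between N2 and dpf-3, and no libraries of 2 genotypes overlapped. The effect of dpf-3 on mir-48 was 0.12 (SE 0.083) in the alg-2 background and 1.34 (SE 0.085) in N2, and the interaction was -1.22 (SE 0.12, adjusted p = 1.1e-06). The double mutants averaged 31903 ± 1251 CPM (SD, n = 3), which is 2.34-fold below the level that equal effects in both backgrounds would give.

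Levels of mir-241 were 1596, 1582 and 1502 CPM in the double mutants, against 1303, 1555 and 1288 CPM in alg-2 mutants. They were 2916, 2706 and 3102 CPM in dpf-3 mutants, against 767, 982 and 933 CPM in N2. Double and alg-2 mutants overlapped, and dpf-3 mutants lay above all others. The interaction of mir-241 was -1.53 (SE 0.20, adjusted p = 4.3e-05), with effects of 0.17 (SE 0.14) in alg-2 animals and 1.70 (SE 0.14) in N2. The interactions of other members were smaller. mir-794 was called in the alg-2 background in place of N2: its level was 76.9 ± 6.45 CPM in double mutants against 107 ± 8.89 in alg-2 mutants, and 70.7 ± 3.67 CPM in dpf-3 mutants against 69.8 ± 4.29 in N2, with an interaction of -0.50 (SE 0.15, adjusted p = 0.028). let-7 itself, which acts at the passage to the adult, was at -0.25 (SE 0.16, adjusted p = 0.24) and did not pass, like mir-84 at -0.14 (SE 0.13), mir-793 at -0.22 (SE 0.18), mir-795 at -0.21 (SE 0.23) and mir-1821 at 0.33 (SE 0.19). In all, 3 of 8 family members had a called negative interaction, against 11.5% of all miRNAs, and none a positive one. The median was -0.23, against 0.042 over all 139. The 8 members together took 6.05% ± 0.178 of the counts in double mutants, 6.11% ± 0.299 in alg-2 mutants, 8.17% ± 0.359 in dpf-3 mutants and 4.25% ± 0.135 in N2 (SD, n = 3 each).

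Among 6 developmental timing miRNAs, which include mir-48, mir-241, mir-84 and let-7, 3 had a called negative interaction, against 11.5% of all miRNAs, and the median was -0.37, against 0.042 over all 139. The list shares 4 members with the let-7 family. The third was lin-4, which starts the succession of larval fates by repressing lin-14. lin-4 was at 2692 ± 114 CPM in double mutants against 2874 ± 237 in alg-2 mutants, and at 2530.4 ± 188 CPM in dpf-3 mutants against 2079.7 ± 73.5 in N2 (SD, n = 3 each), an interaction of -0.38 (SE 0.13, adjusted p = 0.036). Its relative mir-237, at -0.35 (SE 0.13, adjusted p = 0.051), lay just outside the threshold, with 7521 ± 499 CPM in double mutants, 7235 ± 495 in alg-2 mutants, 5304 ± 293 in dpf-3 mutants and 3993 ± 274 in N2. The call of lin-4 was lost when any one library was left out other than alg-2 replicate 2, dpf-3 replicate 3 and N2 replicate 2 (-0.40 to -0.32, adjusted p = 0.052 to 0.098). The call of mir-794 was lost when any one of double mutant replicate 2, dpf-3 replicate 3 and N2 replicate 1 was left out (-0.47 to -0.44, adjusted p = 0.053 to 0.063). lin-4 lost the call as well with RLE factors, no low-count filter, a minimum of 10 CPM and a fit of the 12 libraries alone (edgeR adjusted p = 0.051 to 0.099).

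**Figure D3:**
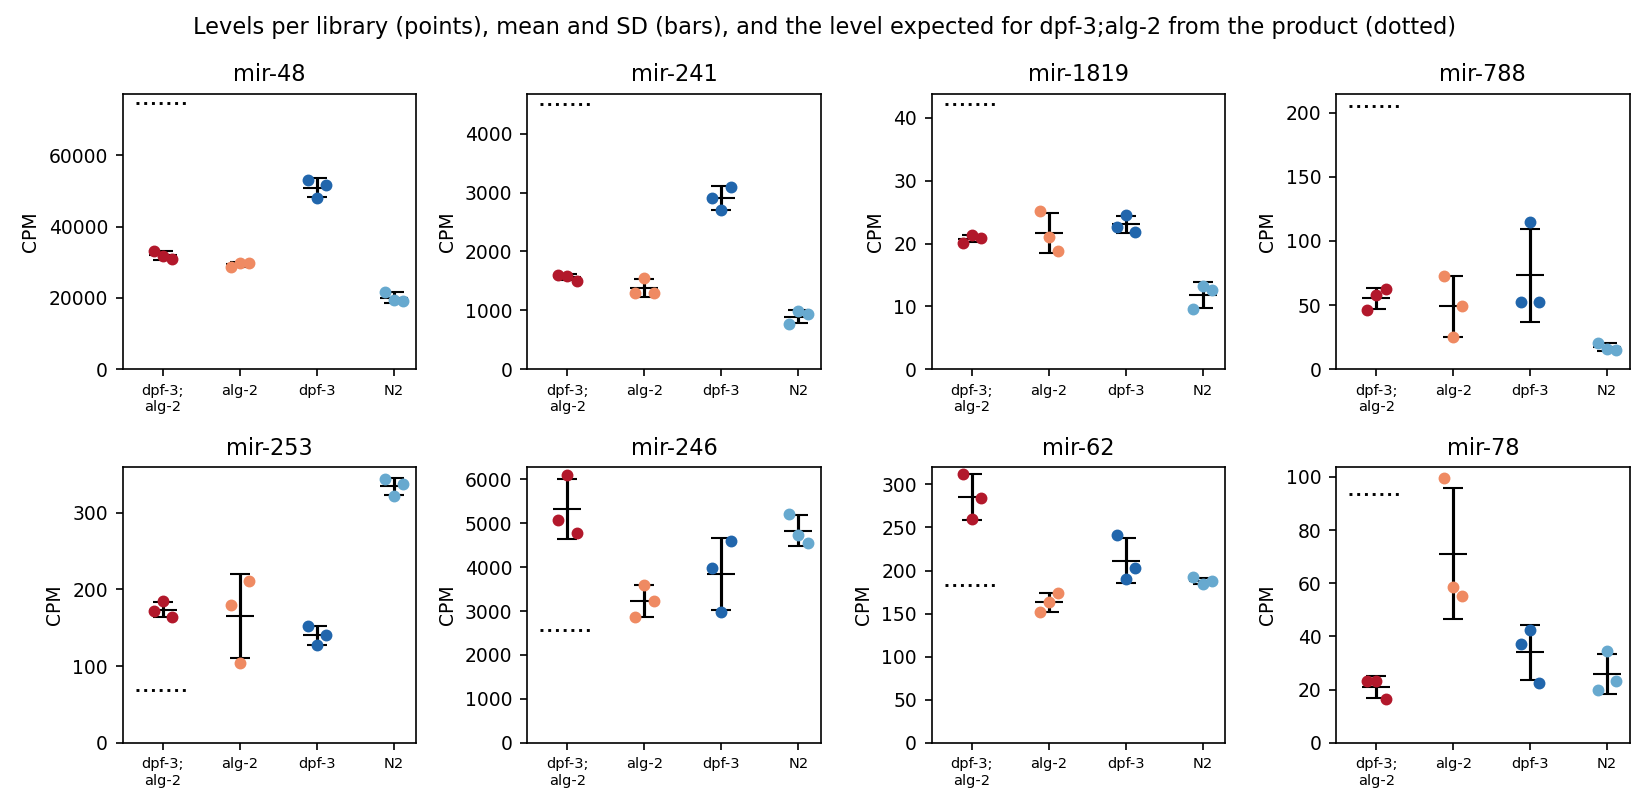
Levels of 8 miRNAs in CPM, with 1 point per library and the mean and SD of 3 libraries per genotype. The dotted line over the double mutants marks the level that equal effects of dpf-3 in both backgrounds would give, which for mir-48 is 74524 CPM, above all 3 double mutant libraries, and for mir-253 is 69.3 CPM, below all 3.

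Beyond these families, further miRNAs changed upon loss of dpf-3 in N2 with no called change in alg-2 animals. mir-253 had 172, 184 and 165 CPM in the double mutants, against 180.3, 105 and 212 CPM in alg-2 mutants. Its level was 152, 128 and 140.2 CPM in dpf-3 mutants, against 345, 322 and 337 CPM in N2. The N2 libraries stood above all others, and the alg-2 libraries spread widely around the double mutants. The interaction of mir-253 was 1.32 (SE 0.25, adjusted p = 7.5e-04), with effects of 0.067 (SE 0.17) in alg-2 animals and -1.26 (SE 0.18) in N2. Levels of mir-1819 were 20.2, 21.4 and 20.8 CPM in the double mutants, against 25.2, 21.0 and 18.8 CPM in alg-2 mutants. They were 22.7, 24.6 and 21.9 CPM in dpf-3 mutants, against 9.53, 13.3 and 12.7 CPM in N2. Double mutants, alg-2 and dpf-3 mutants all lay above N2. The effect on mir-1819 was -0.062 (SE 0.16) in alg-2 animals and 0.96 (SE 0.16) in N2, with an interaction of -1.02 (SE 0.23, adjusted p = 0.0030).

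mir-788 had 46.1, 57.5 and 62.3 CPM in the double mutants, against 72.4, 24.9 and 49.5 CPM in alg-2 mutants. Its level was 52.3, 115 and 52.7 CPM in dpf-3 mutants, against 20.9, 16.2 and 15.4 CPM in N2. A single dpf-3 library was far above the other 2, and the alg-2 libraries spread over a wide range. The interaction of mir-788 was -1.90 (SE 0.53, adjusted p = 0.021), and without dpf-3 replicate 2, the high library, it was -1.46, adjusted p = 0.034. mir-230 was at 260.0 ± 11.3 CPM in double mutants against 307 ± 58.1 in alg-2 mutants, and at 628 ± 139 CPM in dpf-3 mutants against 387 ± 68.1 in N2, an interaction of -0.94 (SE 0.28, adjusted p = 0.022). Smaller negative interactions were those of mir-46 at -0.69 (SE 0.22) and of the abundant mir-70 at -0.44 (SE 0.15), which was at 33846 ± 4252 CPM in double mutants against 28869 ± 2505 in alg-2 mutants, and at 33318 ± 1856 CPM in dpf-3 mutants against 20946 ± 361 in N2. On the positive side mir-43, made from the same locus as mir-42, was at 0.82 (SE 0.25, adjusted p = 0.024) and mir-249 at 0.54 (SE 0.17, adjusted p = 0.032), and both fell upon loss of dpf-3 in N2, with log2 effects of -1.11 (SE 0.17) and -0.62 (SE 0.12). The call of mir-788 was lost without alg-2 replicate 1 (-1.51, adjusted p = 0.062). The call of mir-230 was lost when any one of alg-2 replicate 1 and N2 replicate 1 was left out (-0.82 to -0.81, adjusted p = 0.061 to 0.062). The call of mir-46 was lost when any one library was left out other than double mutant replicate 3, alg-2 replicate 2, dpf-3 replicates 1 and 2 and N2 replicate 3 (-0.66 to -0.58, adjusted p = 0.058 to 0.071). The call of mir-70 was lost when any one library was left out other than double mutant replicate 2, alg-2 replicate 3 and dpf-3 replicate 2 (-0.46 to -0.37, adjusted p = 0.052 to 0.096). The call of mir-43 was lost when any one of double mutant replicate 3, dpf-3 replicate 1 and N2 replicate 1 was left out (0.68 to 0.80, adjusted p = 0.052 to 0.060). The call of mir-249 was lost when any one library was left out other than double mutant replicates 1 and 3, alg-2 replicate 2, dpf-3 replicate 2 and N2 replicate 3 (0.41 to 0.55, adjusted p = 0.054 to 0.080). mir-70 lost the call as well with a minimum of 10 CPM, mir-70 and mir-249 with a fit of the 12 libraries alone, and mir-43 and mir-249 with upper quartile factors and no composition factors (edgeR adjusted p = 0.051 to 0.42).

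4 more called miRNAs were of this kind: mir-82, an abundant member of the mir-58 family described with that family, and 3 rare ones that were picked after their values were seen. mir-796 was at 1.11 (SE 0.30, adjusted p = 0.014), mir-1832 at 1.04 (SE 0.34, adjusted p = 0.032) and mir-789 at 0.78 (SE 0.25, adjusted p = 0.032), each lowered in dpf-3 mutants relative to N2 and each with a mean below 10 CPM. mir-796, for example, was at 2.46 ± 0.221 CPM in double mutants against 2.0 ± 0.157 in alg-2 mutants, and at 2.43 ± 0.271 CPM in dpf-3 mutants against 4.36 ± 0.404 in N2 (SD, n = 3 each). The call of mir-1832 was lost when any one library was left out other than double mutant replicate 2, alg-2 replicate 2, dpf-3 replicate 1 and N2 replicate 2 (0.86 to 1.06, adjusted p = 0.058 to 0.087). The call of mir-789 was lost when any one library was left out other than double mutant replicate 2, alg-2 replicate 3, dpf-3 replicate 3 and N2 replicates 2 and 3 (0.60 to 0.80, adjusted p = 0.051 to 0.086). mir-796, mir-1832 and mir-789 lost the call as well with upper quartile factors, mir-1832 and mir-789 with no composition factors and DESeq2, and mir-789 with a fit of the 12 libraries alone (edgeR or DESeq2 adjusted p = 0.053 to 0.16).

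A second group changed when alg-2 animals lost dpf-3, with no called change in N2. It holds mir-246, which has been linked to lifespan, and mirtrons, miRNAs cut out of introns by splicing without the Microprocessor. Levels of mir-246 were 5081, 6103 and 4787 CPM in the double mutants, against 2855, 3592 and 3220.4 CPM in alg-2 mutants. They were 3979, 2966 and 4590.2 CPM in dpf-3 mutants, against 5216, 4736 and 4547 CPM in N2. The double mutants lay above all alg-2 and dpf-3 libraries, while dpf-3 mutants and N2 overlapped. The interaction of mir-246 was 1.05 (SE 0.22, adjusted p = 0.0023), with effects of 0.72 (SE 0.16) in alg-2 animals and -0.33 (SE 0.16) in N2, and the double mutants were 2.08-fold above the level that equal effects would give. mir-62 had 312, 259.6 and 284 CPM in the double mutants, against 152, 163 and 174 CPM in alg-2 mutants. Its level was 241, 190.3 and 203 CPM in dpf-3 mutants, against 192, 185 and 188 CPM in N2. For this mirtron the double mutants were above all other libraries and the alg-2 mutants below all others. Its interaction was 0.64 (SE 0.16, adjusted p = 0.0086). The mirtron mir-1018 was at 0.93 (SE 0.27, adjusted p = 0.021), with 10.8 ± 2.59 CPM in double mutants against 6.14 ± 0.693 in alg-2 mutants, and 7.95 ± 0.798 CPM in dpf-3 mutants against 8.65 ± 1.62 in N2. The third tested mirtron, mir-1020, was at -0.18 (SE 0.18) and did not pass, and mir-1019 had too few counts to test. The call of mir-1018 was lost when any one of double mutant replicate 3 and N2 replicate 1 was left out (0.70 to 0.78, adjusted p = 0.061 to 0.063). mir-62 and mir-1018 lost the call as well with upper quartile factors (edgeR adjusted p = 0.086 to 0.096).

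Levels of mir-355 were 711, 644 and 564 CPM in the double mutants, against 313, 410.0 and 398 CPM in alg-2 mutants. They were 647, 504 and 611 CPM in dpf-3 mutants, against 599.8, 550.3 and 551 CPM in N2. Levels in alg-2 mutants were below those of every other genotype, and the other 3 genotypes overlapped. The interaction of mir-355 was 0.73 (SE 0.19, adjusted p = 0.012). mir-786, which with mir-240 sets the rhythm of defecation, was at 0.54 (SE 0.19, adjusted p = 0.048), with 158 ± 2.0 CPM in double mutants against 102 ± 9.24 in alg-2 mutants, and 115 ± 28.5 CPM in dpf-3 mutants against 107 ± 4.35 in N2. 2 further miRNAs are outside the rule for named miRNAs and were picked after their values were seen. mir-2220, a rare one, was at 1.57 (SE 0.25, adjusted p = 1.9e-04), with 4.89 ± 0.664 CPM in double mutants against 2.22 ± 0.348 in alg-2 mutants, and 2.73 ± 0.441 CPM in dpf-3 mutants against 3.65 ± 0.291 in N2. mir-1820 was at 0.43 (SE 0.14, adjusted p = 0.032). The call of mir-786 was lost when any one library was left out other than alg-2 replicate 2 and dpf-3 replicate 1 (0.37 to 0.56, adjusted p = 0.068 to 0.11). The call of mir-1820 was lost when any one of double mutant replicate 2, alg-2 replicates 1 and 3, dpf-3 replicates 2 and 3 and N2 replicate 1 was left out (0.31 to 0.45, adjusted p = 0.050 to 0.086). mir-355, mir-786 and mir-1820 lost the call as well with upper quartile factors, mir-786 and mir-1820 with no composition factors, no low-count filter, a fit of the 12 libraries alone and the mir-35 family removed, and mir-786 with DESeq2 (edgeR or DESeq2 adjusted p = 0.051 to 0.49).

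Among the miRNAs with a called interaction, loss of dpf-3 lowered 2 at least 2-fold, and 2 others less, in alg-2 animals without a called change in N2. mir-78 had 23.4, 23.4 and 16.3 CPM in the double mutants, against 99.6, 58.6 and 55.3 CPM in alg-2 mutants. Its level was 37.3, 42.5 and 22.5 CPM in dpf-3 mutants, against 20.0, 34.5 and 23.4 CPM in N2. All alg-2 libraries lay above those of every other genotype, and the double mutants overlapped N2. The interaction of mir-78 was -2.16 (SE 0.41, adjusted p = 0.0011), with effects of -1.76 (SE 0.29) in alg-2 animals and 0.39 (SE 0.28) in N2. Levels of mir-790 were 710.3, 395 and 651 CPM in the double mutants, against 1298, 1056 and 1165 CPM in alg-2 mutants. They were 655, 968 and 669 CPM in dpf-3 mutants, against 796, 794 and 828 CPM in N2. The alg-2 libraries again stood highest, although a single dpf-3 library came near. mir-790, a neuron marker, had an interaction of -0.92 (SE 0.30, adjusted p = 0.032) and effects of -1.002 (SE 0.21) in alg-2 animals and -0.078 (SE 0.21) in N2. mir-245 was at -0.56 (SE 0.16, adjusted p = 0.021), with 454 ± 30.1 CPM in double mutants against 591 ± 44.5 in alg-2 mutants, and 508 ± 86.1 CPM in dpf-3 mutants against 448 ± 25.9 in N2. The call of mir-790 was lost when any one library was left out other than double mutant replicates 1 and 3, alg-2 replicate 2 and dpf-3 replicates 1 and 3 (-0.94 to -0.71, adjusted p = 0.051 to 0.071). The call of mir-245 was lost when any one of alg-2 replicate 1 and N2 replicate 1 was left out (-0.52, adjusted p = 0.052 to 0.060).

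Among the miRNAs with a called interaction, 5 had log2 effects of dpf-3 of opposite signs in the 2 backgrounds, with neither effect called alone. Choosing called differences between 2 uncalled effects favours opposite signs. Signs were also opposite in 13 of the 22 called in N2 only and in 6 of the 11 called in the alg-2 background only. mir-235, which keeps larval neuroblasts quiescent during starvation, was at 3953 ± 867 CPM in double mutants against 5189 ± 76.6 in alg-2 mutants, and at 4175 ± 311 CPM in dpf-3 mutants against 3409 ± 547 in N2, an interaction of -0.68 (SE 0.20, adjusted p = 0.023). mir-239a, linked to lifespan, was at 0.70 (SE 0.22, adjusted p = 0.028), with 84.6 ± 10.9 CPM in double mutants against 65.3 ± 8.51 in alg-2 mutants, and 64.5 ± 9.34 CPM in dpf-3 mutants against 80.9 ± 4.60 in N2. The others were mir-242 at -0.64 (SE 0.21), mir-800 at -0.54 (SE 0.20) and mir-81 at 0.50 (SE 0.16). The call of mir-235 was lost without N2 replicate 1 (-0.56, adjusted p = 0.061). The call of mir-239a was lost when any one of double mutant replicates 1 and 2, dpf-3 replicate 3 and N2 replicate 1 was left out (0.60 to 0.66, adjusted p = 0.052 to 0.063). The call of mir-242 was lost when any one library was left out other than double mutant replicate 1, alg-2 replicate 2, dpf-3 replicates 1 and 3 and N2 replicate 3 (-0.63 to -0.46, adjusted p = 0.059 to 0.095). The call of mir-800 was lost when any one library was left out other than double mutant replicate 1, alg-2 replicate 2 and N2 replicate 2 (-0.60 to -0.39, adjusted p = 0.051 to 0.13). The call of mir-81 was lost when any one library was left out other than double mutant replicate 1, alg-2 replicate 2, dpf-3 replicate 1 and N2 replicates 2 and 3 (0.38 to 0.51, adjusted p = 0.054 to 0.085). mir-239a and mir-81 lost the call as well with upper quartile factors and no composition factors, mir-242 and mir-800 with a minimum of 10 CPM, mir-242, mir-800 and mir-81 with a fit of the 12 libraries alone, and mir-800 with no low-count filter (edgeR adjusted p = 0.051 to 0.29).

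**Figure D4:**
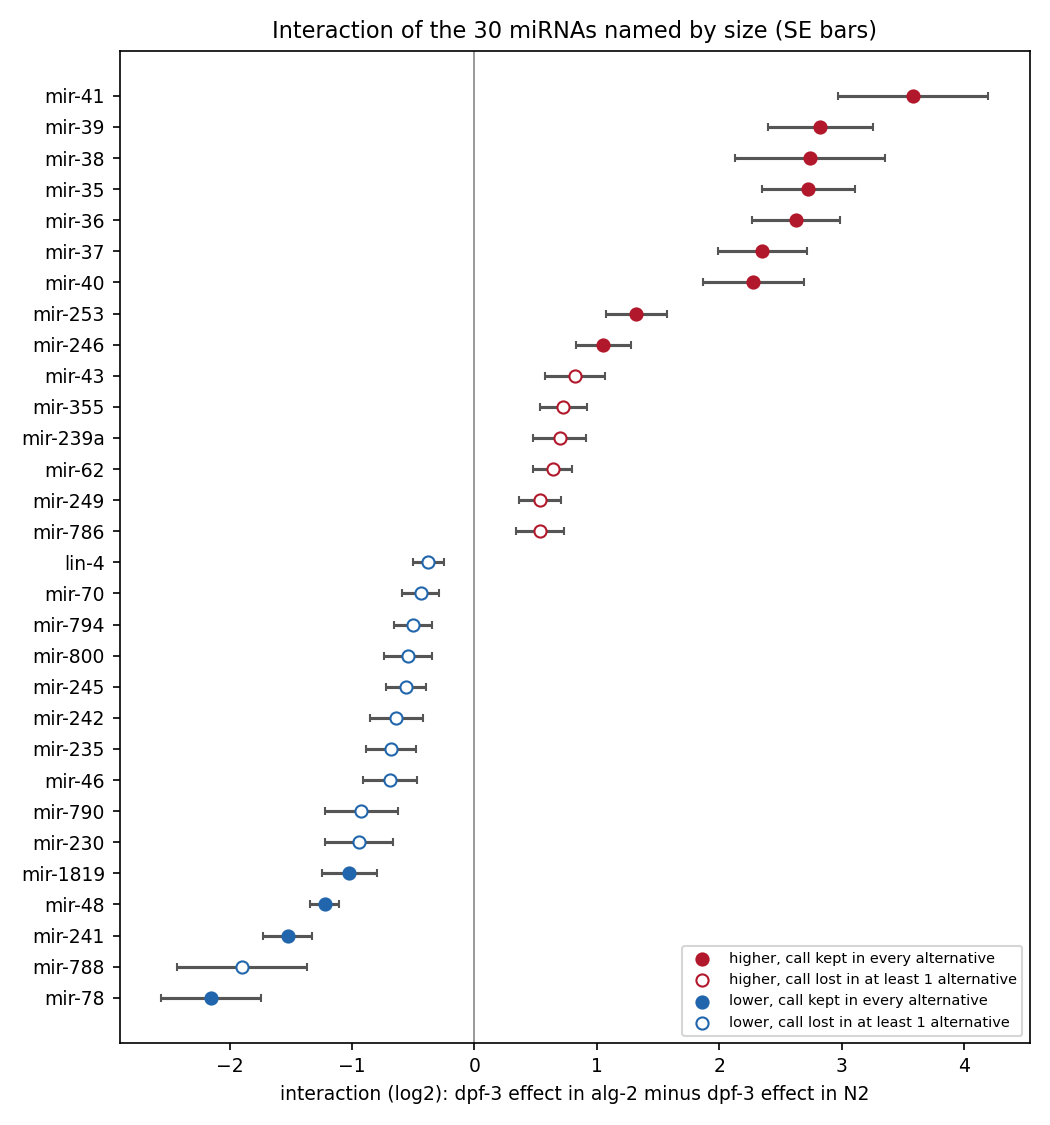
Interaction of the 30 miRNAs named by size, as log2 with SE bars, filled where the call held without each single library and in every alternative that tested the miRNA. The 7 mir-35 family members stand at 2.28 to 3.58, and mir-78 is lowest at -2.16.

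Loss of dpf-3 changed 9 miRNAs in both backgrounds, and always in the same direction, 7 upwards and 2 downwards. 8 of them had no called interaction, and since all 9 were chosen by their effects, their interactions are a description. mir-34, a stress miRNA, fell, with a log2 effect of -0.53 (SE 0.12) in alg-2 animals and -0.67 (SE 0.12) in N2, with an interaction of 0.14 (SE 0.16). mir-244 rose by 0.76 (SE 0.18) in alg-2 animals and 0.91 (SE 0.18) in N2. mir-357 rose by 0.48 (SE 0.10) in alg-2 animals and 0.58 (SE 0.10) in N2. The rises of mir-59 were 0.42 (SE 0.092) in alg-2 animals and 0.28 (SE 0.092) in N2, and those of mir-227 were 0.39 (SE 0.12) and 0.33 (SE 0.12). The rare mir-2208b and mir-2209a rose as well. mir-2208b-3p had an interaction of -0.85 (SE 0.30, adjusted p = 0.046), with 5.30 ± 0.461 CPM in double mutants against 2.27 ± 0.241 in alg-2 mutants, and 9.39 ± 1.12 CPM in dpf-3 mutants against 2.26 ± 0.744 in N2. Its other arm, mir-2208b-5p, rose by 1.09 (SE 0.18) in alg-2 animals and 1.47 (SE 0.16) in N2 and had an interaction of -0.38 (SE 0.24) that did not pass, and mir-2209a was at 0.16 (SE 0.34). mir-260, with 0.624 ± 0.0796 CPM in double mutants against 1.44 ± 0.467 in alg-2 mutants, fell in both. Apart from mir-34, mir-357 and mir-2209a, these miRNAs were named after their values were seen. The call of mir-2208b-3p was lost when any one library was left out other than alg-2 replicate 2, dpf-3 replicate 2 and N2 replicate 2 (-0.91 to -0.61, adjusted p = 0.056 to 0.11). mir-2208b-3p lost the call as well with no low-count filter, a fit of the 12 libraries alone and DESeq2 (edgeR or DESeq2 adjusted p = 0.056 to 0.059).

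In the other families the called members are read against the 28.1% of all 139 miRNAs called in either direction, 16.5% positive and 11.5% negative, and sets this small allow no finer comparison. In the mir-58 family 2 of 5 tested members were called positive, the neighbours mir-81 at 0.50 (SE 0.16, adjusted p = 0.032) and mir-82 at 0.41 (SE 0.15, adjusted p = 0.048). In contrast, mir-58 itself was at -0.024 (SE 0.13) and mir-80 at -0.63 (SE 0.24, adjusted p = 0.061). The mir-2 family had 1 of 4, mir-43, the mir-46 pair 1 of 2, mir-46, and the mirtrons 2 of 3. None of the 6 mir-51, 5 mir-64, 3 mir-44, 3 mir-72, 3 mir-87, 2 mir-75, 2 mir-232, 2 mir-251 and 2 mir-49 family members was called. For these sets the medians ran from -0.40 for mir-251 and mir-252 to 0.33 for the mir-72 family, against quartiles of -0.34 and 0.39 over all 139. Of 7 ageing and stress miRNAs 2 were positive (mir-246 and mir-239a) and 1 negative (lin-4), against 16.5% and 11.5% of all miRNAs. mir-71, at 0.72 (SE 0.32, adjusted p = 0.10), did not pass, with 38373 ± 6159 CPM in double mutants, 37450.2 ± 11248 in alg-2 mutants, 36654 ± 9751 in dpf-3 mutants and 59054 ± 2279 in N2. mir-34, mir-238 and mir-239b did not pass either. The call of mir-82 was lost when any one library was left out other than alg-2 replicate 2, dpf-3 replicate 3 and N2 replicate 3 (0.28 to 0.45, adjusted p = 0.052 to 0.13). mir-82 lost the call as well with RLE factors, upper quartile factors, no composition factors, no low-count filter, a fit of the 12 libraries alone, the mir-35 family removed and DESeq2 (edgeR or DESeq2 adjusted p = 0.056 to 0.48).

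Of the markers of other tissues, all 9 were tested and 1 was called, against 28.1% of all miRNAs. Of the 5 neuron markers only mir-790 passed, and mir-124 was at 0.29 (SE 0.23), lsy-6 at -0.53 (SE 0.26), mir-791 at -0.50 (SE 0.22) and mir-793 at -0.22 (SE 0.18). The glia marker mir-228 was at -0.38 (SE 0.18, adjusted p = 0.13), the muscle marker mir-1 at -0.19 (SE 0.14), and the intestine markers mir-60 and mir-243 at 0.18 (SE 0.16) and 0.12 (SE 0.21). Among the 10 most abundant miRNAs of N2, mir-35, mir-37 and mir-82 had a called interaction, which is near the 28.1% of all miRNAs. The other 7 did not pass, with mir-44/45 at 0.11 (SE 0.17), mir-72 at -0.014 (SE 0.12) and mir-52 at -0.14 (SE 0.13) beside mir-1, mir-58, mir-71 and mir-80 above. The smallest called interaction was that of lin-4 at -0.38, with an SE of 0.13 that is below the median SE of 0.20. Near that median, mir-786 was called at 0.54 (SE 0.19), while mir-79 at 0.36 (SE 0.20, adjusted p = 0.18) did not pass.

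**Figure D5:**
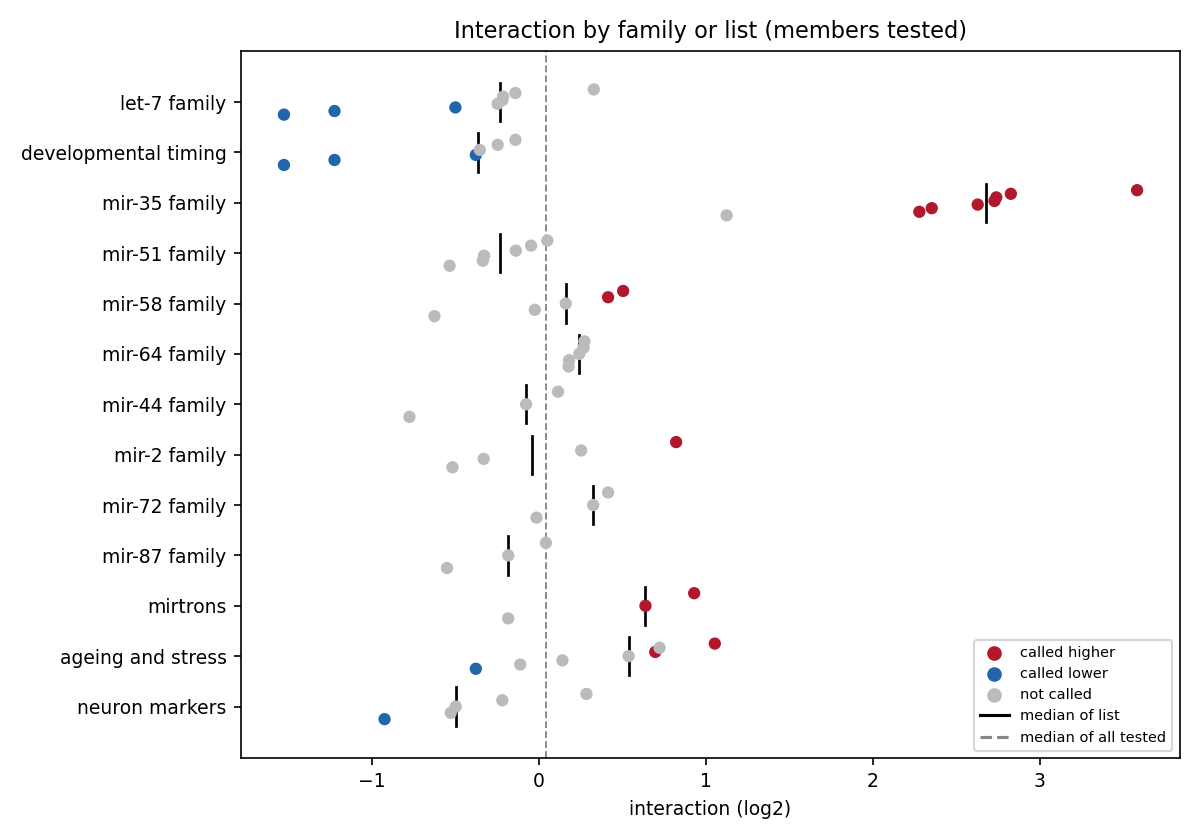
Interaction of each tested member (points, log2) of the families and lists with at least 3 tested members, with the median of each list (black bar) and of all 139 miRNAs (dashed line). The mir-35 family stands apart at the right with a median of 2.68, and mir-48 and mir-241 at the left at -1.22 and -1.53.

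MiRNA genes that lie within 10000 bases of each other were looked up in the RefSeq annotation of WBcel235, which names 122 of the 139 tested miRNAs. Beside the cluster of mir-35 to mir-41, all 7 called and positive, 3 sets of neighbours were called in the same direction: mir-48 with mir-241, mir-81 with mir-82, and mir-2220 with the mirtron mir-1018. In other cases the neighbour, named here after its values were seen unless it is in a list, did not pass: mir-240 at 0.016 (SE 0.19) beside mir-786, mir-228 beside mir-790, mir-791 beside mir-230, mir-2212 at -0.60 (SE 0.25) beside mir-1819, mir-795 beside mir-794, and mir-42 and mir-44/45 beside mir-43. mir-359 at 0.54 (SE 0.25) and mir-785 at 0.18 (SE 0.12) lie near mir-249 and did not pass. Neighbours may share a primary transcript and are then not separate observations.

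Set against the other Argonaute, the effect of dpf-3 loss in alg-2 animals differed from its effect in alg-1(gk214) animals for 92 of 139 miRNAs (66.2%). This test was chosen after the values were seen, and it uses the 3 libraries of each genotype with alg-1(gk214), with and without dpf-3(xe68). These libraries lack the library name, like those of dpf-3 and N2. A difference between library sets beyond an equal scaling therefore cannot be told apart from the Argonaute here either. Of the 39 miRNAs with a called interaction with alg-2, 32 also differed here. Both tests use the same dpf-3;alg-2 and alg-2 libraries, so part of this overlap is built in and lends the calls no support. The root mean square interaction over all 139 was 0.85 with alg-2 and 2.10 with alg-1. mir-35 had an interaction of 2.73 (SE 0.38) with alg-2 and of 7.26 (SE 0.41) with alg-1, and the effect of dpf-3 differed between the alg-2 and alg-1 backgrounds by -4.53 (SE 0.39, adjusted p = 6.2e-08). The mir-35 family took 0.331, 0.348 and 0.337% of the counts in alg-1 mutants, and 9.05, 4.88 and 4.75% in dpf-3;alg-1 mutants. In alg-1 animals the family was thus higher without dpf-3, while in alg-2 animals no member had a called change. mir-246 was at 1.05 (SE 0.22) with alg-2 and 5.28 (SE 0.24) with alg-1, a difference of -4.23 (SE 0.23, adjusted p = 8.4e-11). Since the effect on mir-246 in N2 was -0.33, its value with alg-1 stands for a rise in alg-1 animals. mir-788 was at -1.90 (SE 0.53) and -5.34 (SE 0.59), with a difference of 3.44 (SE 0.58, adjusted p = 6.7e-05). With an effect on mir-788 in N2 of 2.07, its value with alg-1 stands for a fall in alg-1 animals. mir-241 was at -1.53 (SE 0.20) with alg-2 and 0.0099 (SE 0.20) with alg-1, a difference of -1.54 (SE 0.20, adjusted p = 2.0e-06). For mir-48 the interactions were -1.22 (SE 0.12) with alg-2 and -1.17 (SE 0.12) with alg-1, and the difference of -0.053 (SE 0.12, adjusted p = 0.69) did not pass. Both interactions use the same dpf-3 and N2 libraries.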

How the data were processed

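Small RNA was cloned from young adult worms with a NEBNext kit and cut to miRNA size on a gel, per the labels' protocols. Bowtie 0.12.7 is named in the submitters' processing notes. The genome build, the miRNA annotation and the counting rule were not given in the sources used here. The authors deposited expected counts for 176 miRNA names in each library, without normalization. In a library of the 12 used here 75% to 86.4% of them were whole (tolerance 1e-06), and how reads that match several miRNAs were shared is not stated. The values were rounded. mir-44 and mir-45 were identical in all 18 libraries and were summed, which left 175 miRNAs. Of these, 139 passed edgeR's low-count filter (minimum count 10, minimum total 15), and the other 36 held 0.000264% of the counts.

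All 18 libraries entered 1 fit in edgeR 4.0.16 (R 4.3.3) with genotype as the term, TMM factors and the robust quasi-likelihood test on 12 residual degrees of freedom. P-values were adjusted over the 139 miRNAs by Benjamini and Hochberg. SE is the size of the log2 value over the square root of its F statistic. The scripts were tested on simulated data. Members, lists and tests were chosen with earlier results of these data known. The miRNAs named are the up to 15 called interactions of largest size in each direction among those with a mean of at least 10 CPM, the members of the lists, and the 10 most abundant miRNAs of N2. Any other is said to have been picked after its values were seen. Whether replicates came from separate cultures is not in the labels, and p-values therefore describe only the spread among these libraries, which could be technical. Within each genotype all pairs of libraries differed beyond sampling noise. Other composition factors, filters, sets of libraries, replicate blocks, DESeq2 1.42.0 and limma-voom (limma 3.58.1) were tried as alternatives. No sequences are shown.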

Additional observations from a re-analysis of the deposited data

Results flagged for a closer look

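The effect of dpf-3 loss differed between alg-2 animals and N2, by the edgeR test of the interaction, for 39 miRNAs. The log2 interaction, with the effect in N2 subtracted from that in alg-2 animals, was 3.58 for mir-41, 2.83 for mir-39, 2.74 for mir-38, 2.73 for mir-35, 2.63 for mir-36, 2.35 for mir-37 and 2.28 for mir-40. In the next positive ones it was 1.57 for mir-2220, 1.32 for mir-253, 1.11 for mir-796, 1.05 for mir-246, 1.04 for mir-1832, 0.93 for mir-1018, 0.82 for mir-43 and 0.78 for mir-789. The smallest positive ones were 0.73 for mir-355, 0.70 for mir-239a, 0.64 for mir-62, 0.54 for mir-249, 0.54 for mir-786, 0.50 for mir-81, 0.43 for mir-1820 and 0.41 for mir-82.

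Among the negative ones the log2 interaction was -2.16 for mir-78, -1.90 for mir-788, -1.53 for mir-241, -1.22 for mir-48, -1.02 for mir-1819, -0.94 for mir-230, -0.92 for mir-790 and -0.85 for mir-2208b-3p. It was -0.69 for mir-46, -0.68 for mir-235, -0.64 for mir-242, -0.56 for mir-245, -0.54 for mir-800, -0.50 for mir-794, -0.44 for mir-70 and -0.38 for lin-4. The part of library set, embryo content and read depth in these differences was not tested.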

How the results depend on the processing

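Of the 39 called interactions none changed sign in any alternative, 20 kept their call under every other scaling, filter, tool or fit tried, 17 kept it without each single library, and 14 did both. With upper quartile factors 10 interactions were positive and 33 negative, the effect in alg-2 animals had 5 lower calls, and that in N2 had 57 higher and 11 lower. With no composition factors 14 interactions were positive. With the mir-35 family removed, which takes away 7 calls by construction, 13 were positive, the effect in alg-2 animals had 14 lower calls and that in N2 14. With a mean of at least 10 CPM required, which tests 114 miRNAs, 11 were higher in alg-2 animals and 10 in N2. Lower calls in alg-2 animals were 14 with RLE and 14 with DESeq2. In these cases, other than those that take miRNAs away, the cause was not tested. On the CPM scale, as a difference of differences of means, all 30 named interactions kept their sign.

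Leaving out 1 library at a time gave 13 to 24 positive and 5 to 21 negative interactions, 13 to 19 higher and 5 to 13 lower calls in alg-2 animals, and 15 to 25 and 17 to 26 in N2. Negative interactions numbered 5 without N2 replicate 1, 9 without double mutant replicate 2, and 6 and 10 when replicates 1 and 3 of alg-2 were left out in turn. Lower calls in alg-2 animals numbered 13 without dpf-3 replicate 2, and 5 when double mutant replicate 2 or replicate 1 or 3 of alg-2 was left out.

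Libraries of the same number did not deviate together: their deviations from the genotype means had correlations of -0.57 to 0.38 over 18 pairs, with 3 above 0.1, and the numbers were taken as names only. With a replicate block over all libraries 23 interactions were positive and 16 negative, and with a replicate block within each library set 21 and 11. Calls lost were those of mir-82, mir-800 and mir-2208b-3p with the first block, and those of mir-1832, mir-786, lin-4, mir-794, mir-800, mir-242 and mir-2208b-3p with the second. Of the 39 called miRNAs, 6 had a mean below 10 CPM.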
